A study of Homo sapiens with 4 samples.

Results

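The 49 genes described here are ligands, receptors, modulators and feedback targets of Wnt signalling, measured in Huh7, a long-established cell line from a human hepatocellular carcinoma. They were chosen by gene symbol, with no measured value used for the choice, and each symbol was represented by the transcript model with the most reads over the 4 libraries. All 49 were among the 42067 gene symbols of the tables, and 48 of them were among the 27514 that passed the filter on low counts. The fold changes of Huh7 cells kept in 300 µM hydrogen peroxide (H2O2) were taken against those of mock-treated Huh7 cells. Both groups were cultured for 4 days with a daily change of medium, and the labels name no altered gene in either. Each group had 2 libraries, named H and Q here and in brackets after their values, from the letter in their titles, whose meaning is not given in the sources used here. Nothing in the labels says that the libraries of a group came from separate cultures, so p-values measure the spread between these libraries, which may be technical.

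Wnt proteins are secreted glycoproteins that carry a lipid added by PORCN and are carried to the cell surface by WLS. They bind Frizzled receptors and the co-receptors LRP5 and LRP6, which stops the destruction complex of AXIN, APC and GSK3B from marking beta-catenin for degradation. Beta-catenin then joins TCF and LEF factors on DNA and turns on target genes, among them AXIN2, NKD1, NOTUM, RNF43 and ZNRF3, whose products dampen the same pathway. In liver the pathway sets the gene expression of hepatocytes around the central vein, and it is often activated in hepatocellular carcinoma.

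Mapped read mates numbered 78126878 in the smallest library and 88409567 in the largest. Levels are TMM-normalised CPM, counts per unit of depth after scaling for library composition, and each fold change is the log2 ratio with mock as the denominator. Markers of hepatocyte-derived cells summed to 21515 (H) and 12361 (Q) CPM under H2O2 and to 18552 (H) and 5981 (Q) CPM in mock. Marker lists of other cell types were not all near 0. The 5 of 7 blood and immune markers that passed the filter summed to 606 (H) and 546 (Q) CPM under H2O2 and to 424 (H) and 400.2 (Q) CPM in mock, nearly all of it LYZ, while PTPRC lay at or below 0.272 CPM. The 7 of 8 fibroblast markers that passed summed to 41.8 to 60.3 CPM over the libraries, mostly PDGFRA and COL1A1, and DCN had at most 29 reads. The 4 of 6 endothelial markers that passed summed to 2.98 to 4.54 CPM, and CDH5 had at most 13 reads. The part of these markers in the results was not tested. The mock libraries stood apart from each other in 12 hypoxia genes, whose median deviation from the mean of the 4 libraries, on the log2(CPM + 0.1) scale, was 0.03 and −0.18 log2 units in H2O2 libraries H and Q, but 0.98 and −0.60 in mock libraries H and Q.

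Promoter sequence from RefSeq (GRCh38.p14) was at hand for 31 of the 49 genes, and the 250 bases before the start were searched for the TCF and LEF motifs CTTTGAT and CTTTGAA on both strands. The motif lay in 2 of the 41 promoters listed for these 31 genes, those of SP5 and DKK1, which is 4.88%, against 5.94% of all 35116 promoters of that length. SP5, a zinc finger gene named as a direct target of beta-catenin, held 3 matches, as many as were reached by 0.0199% of all promoters. They begin 148, 109 and 84 bases before the start, and that of DKK1 begins 95 bases before it. These promoters are shown, with the motif in capitals, beside those of WLS (the first of 2 listed) and SFRP5, in which no match was found. These were, among matched genes whose groups did not overlap, the ones with the largest difference upward and downward. The sequences run 5′ to 3′ on the strand of the gene, at chr2:170715087-170715336 (+) for SP5, chr10:52314031-52314280 (+) for DKK1, chr1:68232524-68232773 (−) for WLS and chr10:97772000-97772249 (−) for SFRP5.
SP5: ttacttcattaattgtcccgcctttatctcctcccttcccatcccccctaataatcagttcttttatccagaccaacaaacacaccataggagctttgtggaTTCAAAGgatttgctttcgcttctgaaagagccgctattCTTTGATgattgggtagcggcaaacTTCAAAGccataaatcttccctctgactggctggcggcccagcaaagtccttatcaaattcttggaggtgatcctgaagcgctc
DKK1: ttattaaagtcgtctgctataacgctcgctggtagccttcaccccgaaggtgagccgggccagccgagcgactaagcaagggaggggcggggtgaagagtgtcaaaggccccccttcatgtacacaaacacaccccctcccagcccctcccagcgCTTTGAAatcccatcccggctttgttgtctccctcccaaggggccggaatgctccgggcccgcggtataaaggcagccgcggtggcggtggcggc
WLS: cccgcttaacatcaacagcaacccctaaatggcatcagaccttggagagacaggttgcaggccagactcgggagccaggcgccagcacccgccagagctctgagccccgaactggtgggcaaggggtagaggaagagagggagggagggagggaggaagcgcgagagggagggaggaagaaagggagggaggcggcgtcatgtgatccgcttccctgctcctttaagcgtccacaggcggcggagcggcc
SFRP5: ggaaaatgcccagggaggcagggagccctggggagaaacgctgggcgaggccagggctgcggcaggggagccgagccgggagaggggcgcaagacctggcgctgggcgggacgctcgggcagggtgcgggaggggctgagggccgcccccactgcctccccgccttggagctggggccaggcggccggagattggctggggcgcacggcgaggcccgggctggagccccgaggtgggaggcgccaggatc
A match is a description of these letters. The levels of the genes with a match, SP5 and DKK1, differed by 0.07 and −0.03 log2 units, while WLS differed by 0.90 and SFRP5 by −1.86. WLS and SFRP5 were chosen for the size of their differences, so no relation of motif to difference can be read from these values. For AXIN2, NOTUM, NKD1 and TBX3 no promoter sequence was at hand, and they were not searched.

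Over all Wnt genes the levels in H2O2 and in mock were balanced, with 24 genes higher and 24 lower in H2O2 and a median of −0.01, beside a median of −0.03 over all genes tested. By edgeR's quasi-likelihood test, adjusted over all genes tested, 0 of the 48 genes passed 5%, as did 0 of all 27514 genes, or 0.0%. The lowest adjusted p among the Wnt genes was 0.719. At an unadjusted p under 5% there were 5 Wnt genes with edgeR and 5 with DESeq2, of which 0 passed after adjustment, and 1898 genes in all with edgeR, or 6.9%. Of the 5 with edgeR, 3 were higher (AXIN2, NOTUM and NKD1) and 2 lower (LGR4 and SFRP5), beside 3.11% of all genes upward and 3.79% downward. DESeq2 called 139 of all genes, with 0 Wnt genes among them. In 8 Wnt genes, or 16.7%, both H2O2 libraries lay above both mock libraries, against 18.1% of all genes tested. In 9 of them, or 18.8%, both lay below, against 21.3% of all genes. These shares are near the background. Differences that also reached 0.5 log2 units were seen in 5 genes in each direction, which is 10.4%, against 7.78% of all genes upward and 11.0% downward.

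**Figure D1:**
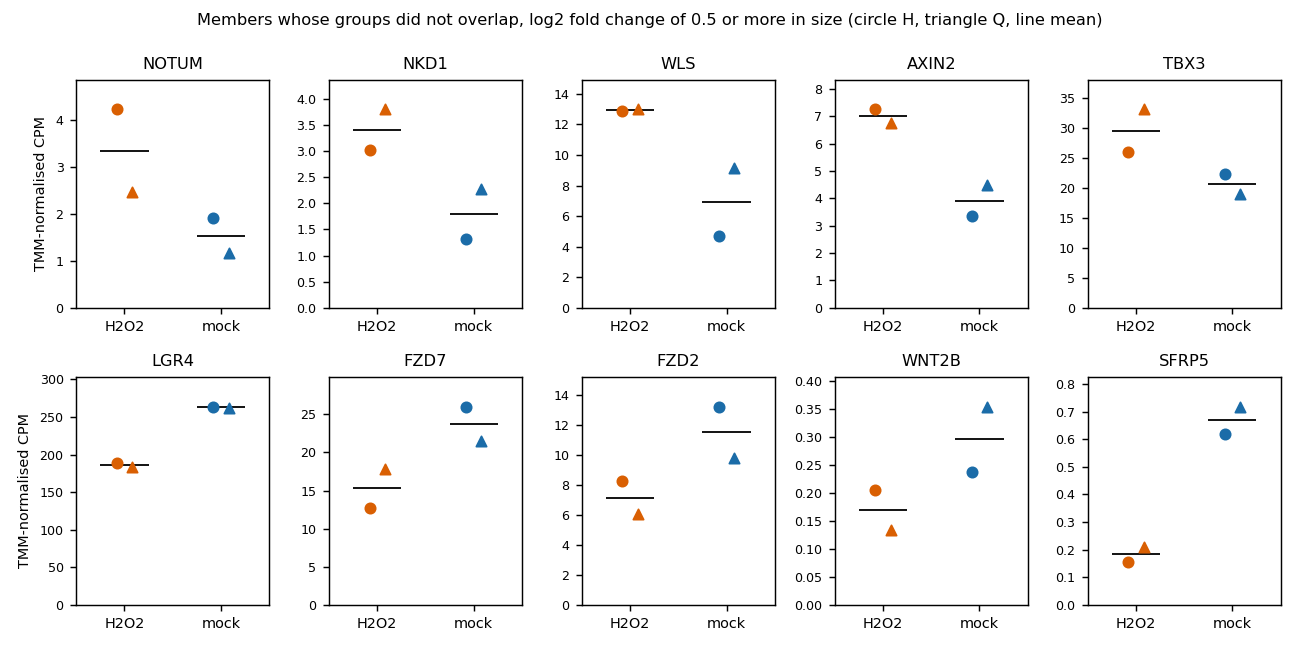
The 10 Wnt genes in which both H2O2 libraries lay above or below both mock libraries and the fold change was at least 0.5 log2 units in size, in TMM-normalised CPM on axes that start at 0. Circles are libraries H, triangles libraries Q and lines group means (n = 2). NOTUM, NKD1, WLS, AXIN2 and TBX3 were higher in H2O2, and LGR4, FZD7, FZD2, WNT2B and SFRP5 were lower, while none passed the test over all genes.

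Of the 5 feedback targets named above, AXIN2, NKD1 and NOTUM lay higher in both H2O2 libraries, RNF43 lay lower in both, ZNRF3 overlapped, and 0 passed the test. Over all genes tested, 18.1% lay higher without overlap and 21.3% lower. AXIN2, a scaffold of the destruction complex whose transcription follows beta-catenin activity, measured 7.24 (H) and 6.77 (Q) CPM under H2O2, against 3.34 (H) and 4.50 (Q) CPM in mock. Its log2 fold change was 0.84 (SE 0.26, 95% interval 0.18 to 1.5, edgeR unadjusted p = 0.0223, adjusted p = 0.719). The H2O2 libraries lay close together and the higher mock library reached neither of them. In bulk RNA, a change in the share of cells that express a gene and a change in RNA per cell cannot be told apart.

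NOTUM, a secreted enzyme that removes the lipid from Wnt proteins, measured 4.22 (H) and 2.46 (Q) CPM under H2O2, against 1.91 (H) and 1.16 (Q) CPM in mock (1.12, SE 0.41, 95% interval 0.08 to 2.16, edgeR adjusted p = 0.719). Library H lay above library Q in each group, and the ratio within a letter was nearly the same on the log2 scale, 1.14 for H and 1.08 for Q. NKD1, which binds Dishevelled and dampens the signal inside the cell, measured 3.02 (H) and 3.80 (Q) CPM under H2O2, against 1.32 (H) and 2.27 (Q) CPM in mock (0.92, SE 0.36, 95% interval 0.02 to 1.83, edgeR adjusted p = 0.719). Its levels did not overlap between groups, and they were lowest in mock library H. Without mock library H, the values of AXIN2, NOTUM and NKD1 were 0.64, 1.52 and 0.59, and without H2O2 library H they were 0.79, 0.68 and 1.08, so that NKD1 and NOTUM each moved by more than 1.5 times. AXIN2, NKD1 and NOTUM kept a positive fold change under all 13 alternative settings. With both H2O2 libraries above both mock libraries, leaving out a library could hardly turn the sign, and every setting drew on the same libraries. The value of NKD1 was 1.67 with limma on log2(FPKM + 1) and 2.0 on log2(FPKM + 0.1).

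The relatives of these feedback genes are compared through the reads of a gene over those of its relative in the same library, a ratio that does not depend on the scaling of the library. Of 7 pairs computed, all chosen after their values were seen, 3 ratios lay higher in both H2O2 libraries, 1 lay lower in both, and 3 overlapped. How often ratios of other gene pairs lie without overlap was not computed, so these counts have no background to be set against. For AXIN2 over AXIN1, the AXIN gene that is expressed independently of the signal, the ratio was 0.258 ± 0.0152 in H2O2 and 0.138 ± 0.0180 in mock (SD, n = 2 each). AXIN1 itself measured 27.3 ± 2.92 CPM in H2O2 and 28.3 ± 2.29 CPM in mock (−0.06, SE 0.20). The ratio of NKD1 over NKD2 was 0.296 ± 0.0789 in H2O2 and 0.180 ± 0.00497 in mock. NKD2, also a Dishevelled-binding inhibitor, measured 12.6 (H) and 10.8 (Q) CPM under H2O2, against 7.48 (H) and 12.4 (Q) CPM in mock (0.24, SE 0.31), so that its groups overlapped and mock library H was the lowest. For ZNRF3 over RNF43, ligases that remove Frizzled receptors from the surface, the ratio was 1.20 ± 0.361 in H2O2 and 0.693 ± 0.0837 in mock. The ratio that lay lower was that of TCF7L2 over TCF7L1, with 1.69 ± 0.308 in H2O2 and 2.21 ± 0.320 in mock. By a two-sided exact permutation test each of these 4 had p = 0.333, the value that any ratio without overlap has. It is the smallest that 2 against 2 libraries can give.

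Of these ligases and the receptors of R-spondins, which protect Frizzled proteins from removal, 3 of 4 had fold changes below 0, and 0 of 4 passed the test. Groups did not overlap in 2 of those below 0, a pattern that 21.3% of all genes tested showed downward. The count below 0 was 2 of 4 when H2O2 library H was left out and 2 of 4 when mock library Q was. LGR4, with 43.1 CPM per kilobase beside 1.26 for LGR5, measured 189 (H) and 183 (Q) CPM under H2O2, against 264 (H) and 262 (Q) CPM in mock (−0.50, SE 0.19, 95% interval −0.98 to −0.02, edgeR unadjusted p = 0.0437, adjusted p = 0.719). Libraries of the same group were nearly equal, and the value stayed between −0.52 and −0.47 without each library in turn. RNF43 had the same even pattern, with 30.5 (H) and 29.8 (Q) CPM under H2O2, against 39.6 (H) and 41.1 (Q) CPM in mock (−0.42, SE 0.18). ZNRF3 measured 44.4 (H) and 28.1 (Q) CPM under H2O2, against 29.8 (H) and 26.0 (Q) CPM in mock (0.38, SE 0.28). Its groups overlapped, and without H2O2 library H its value was 0.01. LGR5, a marker of stem cells and of pericentral hepatocytes, lay at 3.25 (H) and 6.87 (Q) CPM under H2O2 beside 3.65 (H) and 9.49 (Q) CPM in mock (−0.38, SE 0.58). The Q libraries held more LGR5 reads than the H libraries in both groups, and the value was 0.06 when H2O2 library H was left out and 0.47 when mock library Q was.

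**Figure D2:**
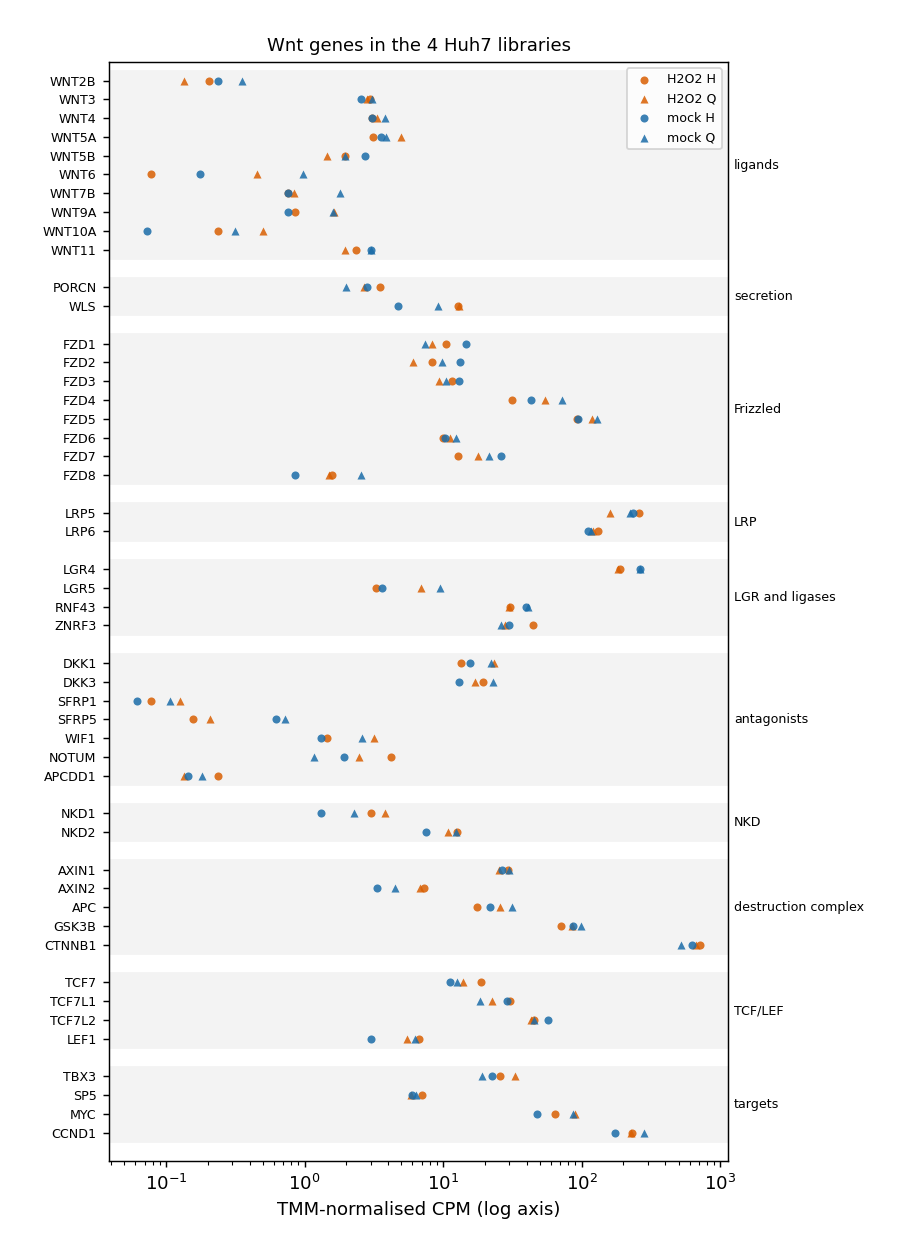
TMM-normalised CPM of the 48 Wnt genes that passed the filter, on a log axis, with orange for H2O2 and blue for mock, circles for libraries H and triangles for libraries Q. Genes are grouped by role. CTNNB1 had the highest levels, and in WNT6, LGR5, WIF1 and FZD4 the triangles lie right of the circles in both colours.

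All 8 Frizzled receptors on the list had fold changes below 0, from −0.69 to −0.09 with a median of −0.20, and 0 of 8 passed the test. The count was also 8 of 8 with RLE scaling and with scaling by the total count alone, and between 5 and 7 of 8 with limma on FPKM, with the letter as a block, and when mock library Q, mock library H or H2O2 library H was left out. FZD9, a Frizzled gene not on the list and named after its value was seen, went the other way. It measured 3.65 (H) and 2.24 (Q) CPM under H2O2, against 1.40 (H) and 1.92 (Q) CPM in mock, without overlap (0.83, SE 0.36, edgeR adjusted p = 0.723). Its value was 0.43 without H2O2 library H. FZD10, also not on the list, lay lower on at most 12 reads per library (−0.84, SE 0.64). FZD2 measured 8.27 (H) and 6.05 (Q) CPM under H2O2, against 13.2 (H) and 9.83 (Q) CPM in mock (−0.69, SE 0.28, 95% interval −1.41 to 0.03). The ratio within a letter was −0.68 for H and −0.70 for Q, and the value was −0.46 without mock library H. FZD7, a Frizzled gene often raised in liver tumours, measured 12.8 (H) and 17.9 (Q) CPM under H2O2, against 26.0 (H) and 21.5 (Q) CPM in mock (−0.63, SE 0.26, 95% interval −1.28 to 0.02). Its lower mock library still lay above its higher H2O2 library, while the ratio was −1.03 for letter H and −0.26 for letter Q, and the value was −0.41 without H2O2 library H.

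FZD5 had the most reads per kilobase of the Frizzled genes, with a mean of 16.2 CPM per kilobase over the 4 libraries, and its levels were 91.8 (H) and 119 (Q) CPM under H2O2 and 94.6 (H) and 130 (Q) CPM in mock (−0.09, SE 0.25, 95% interval −0.73 to 0.56). FZD1, FZD3, FZD4, FZD6 and FZD8 also overlapped between groups, with fold changes between −0.44 and −0.10. The co-receptor LRP5, at 42.6 CPM per kilobase, measured 260 (H) and 160 (Q) CPM under H2O2 and 236 (H) and 223 (Q) CPM in mock (−0.12, SE 0.29), the H2O2 libraries lying on either side of mock. LRP6 measured 125 ± 7.93 CPM in H2O2 and 113 ± 3.63 CPM in mock (0.14, SE 0.18).

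On the side of the ligand, WLS, the carrier of Wnt proteins, measured 12.9 (H) and 13.0 (Q) CPM under H2O2, against 4.70 (H) and 9.16 (Q) CPM in mock (0.90, SE 0.36, 95% interval −0.02 to 1.82, edgeR adjusted p = 0.719). The H2O2 libraries were nearly equal and the spread lay in mock, so that the value was 0.50 without mock library H and 1.46 without mock library Q. Mock library H was also the library in which hypoxia genes stood highest, and their part in this difference was not tested. PORCN, the acyltransferase, measured 3.49 (H) and 2.68 (Q) CPM under H2O2 and 2.80 (H) and 1.97 (Q) CPM in mock (0.37, SE 0.31), with overlapping groups.

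The 10 ligands were low, with 4 fold changes above 0 and 6 below, a median of −0.29, and 0 that passed the test. With scaling by the total count alone 2 lay above 0 and 8 below, and without mock library Q 7 lay above 0 and 3 below, with a median of 0.12. WNT11, a ligand best known for signals that do not use beta-catenin, had the most reads per kilobase, at 1.33 CPM per kilobase over the 4 libraries. It measured 2.34 (H) and 1.94 (Q) CPM under H2O2, against 3.0 (H) and 3.0 (Q) CPM in mock (−0.49, SE 0.26, 95% interval −1.13 to 0.16), so the groups did not overlap. WNT2B measured 0.206 (H) and 0.134 (Q) CPM under H2O2, against 0.238 (H) and 0.355 (Q) CPM in mock (−0.81, SE 0.51). This rests on 21 and 16 reads in H2O2 and on 23 and 43 reads in mock, and the value was −0.52 without H2O2 library Q and −0.49 without mock library Q. WNT6 had the lowest value of the ligands (−1.10, SE 1.07), but its levels followed the letter, with 0.0783 (H) and 0.452 (Q) CPM under H2O2 and 0.176 (H) and 0.966 (Q) CPM in mock, and without mock library Q its value was 0.60. WNT10A, the ligand with the highest value (0.91, SE 0.80), was also higher in the Q libraries, with 0.235 (H) and 0.502 (Q) CPM under H2O2 and 0.0723 (H) and 0.314 (Q) CPM in mock. It had 7 reads in mock library H, and its value was 0.24 without that library, 0.28 without H2O2 library Q and 2.33 without mock library Q. WNT3, WNT4, WNT5A and WNT9A had fold changes between −0.12 and 0.13, and each turned sign when at least 1 library was left out. WNT5B lay at −0.46, without overlap, and at −0.20 without mock library H. WNT7B lay at −0.68, and at 0.07 without mock library Q, the library that held 1.79 CPM of it against 0.754 to 0.836 CPM in the other 3.

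Of the secreted and membrane antagonists other than NOTUM, SFRP5, a decoy that binds Wnt proteins outside the cell, had the largest difference of all the Wnt genes. It measured 0.157 (H) and 0.209 (Q) CPM under H2O2, against 0.620 (H) and 0.718 (Q) CPM in mock (−1.86, SE 0.40, 95% interval −2.88 to −0.84, edgeR unadjusted p = 0.00506, adjusted p = 0.719). Those levels come from 16 and 25 reads in H2O2 and from 60 and 87 reads in mock, and the letters gave differences of −1.98 (H) and −1.78 (Q). DKK1, an inhibitor of the LRP co-receptors and at 10.4 CPM per kilobase the most abundant antagonist, measured 13.5 (H) and 23.2 (Q) CPM under H2O2 and 15.6 (H) and 22.0 (Q) CPM in mock (−0.03, SE 0.34, 95% interval −0.91 to 0.84). Its levels were set apart by letter and not by treatment. WIF1, another secreted decoy, had the same layout, with 1.45 (H) and 3.19 (Q) CPM under H2O2 and 1.31 (H) and 2.59 (Q) CPM in mock (0.25, SE 0.52). DKK3, SFRP1 and APCDD1 lay between 0.03 and 0.26 with overlapping groups. DKK4, the gene that did not pass the filter, had 4 and 2 reads in H2O2 libraries H and Q and 0 and 9 reads in mock libraries H and Q.

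**Figure D3:**
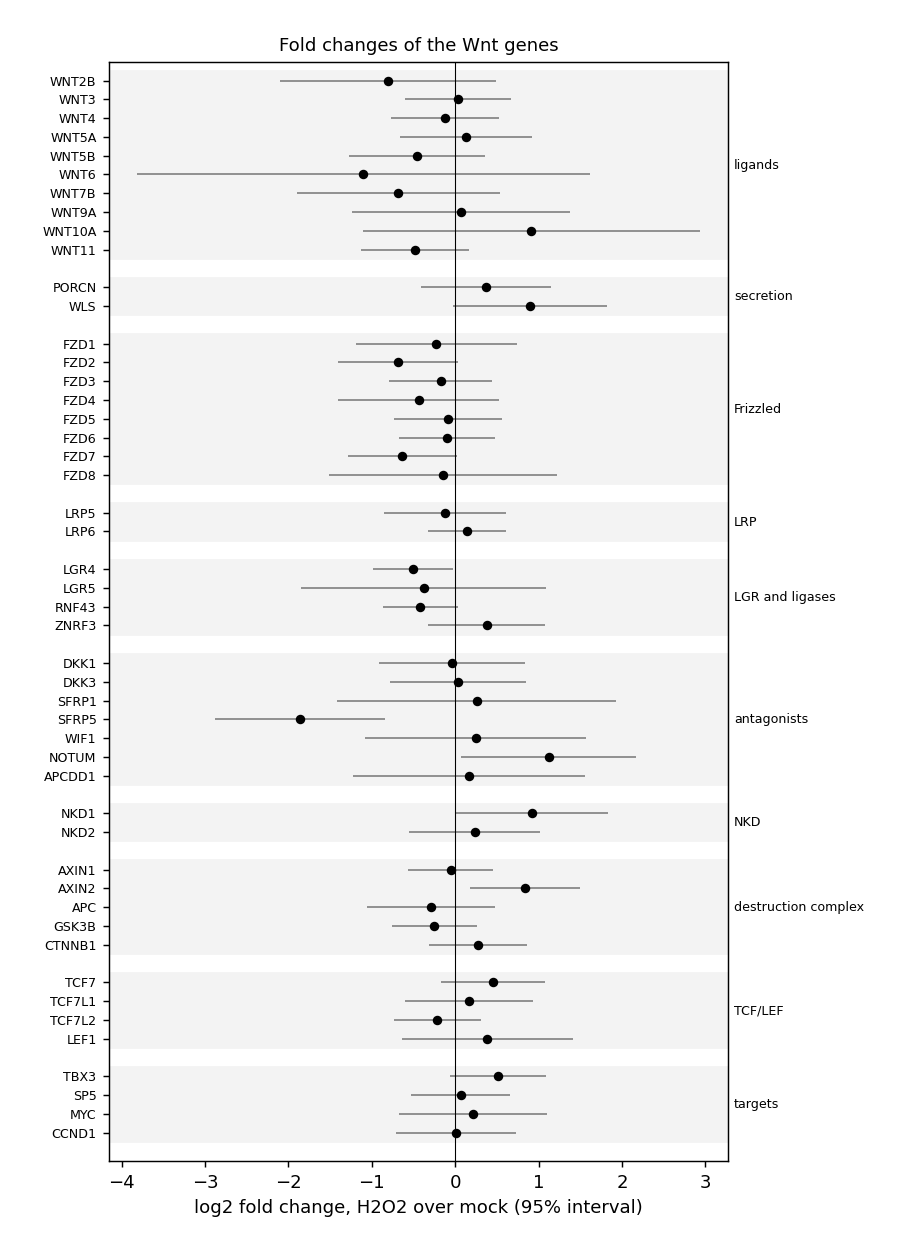
Log2 fold change of H2O2 over mock for the 48 Wnt genes that passed the filter, grouped by role, with 95% intervals from edgeR's fit (2 libraries per group). All 8 Frizzled points lie left of 0, and the intervals of AXIN2, NOTUM, NKD1, LGR4 and SFRP5 stay on 1 side of 0 before adjustment.

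Beta-catenin itself, CTNNB1, was the most abundant of the Wnt genes, at 182 CPM per kilobase. It measured 713 (H) and 666 (Q) CPM under H2O2, against 624 (H) and 519 (Q) CPM in mock (0.27, SE 0.23, 95% interval −0.32 to 0.86). Its groups did not overlap, although their distance was small. GSK3B, the kinase that marks beta-catenin for degradation, measured 77.8 ± 9.52 CPM in H2O2 and 92.5 ± 9.32 CPM in mock (−0.25, SE 0.20). APC, a scaffold of the same complex, measured 21.7 ± 5.75 CPM in H2O2 and 26.6 ± 7.07 CPM in mock (−0.29, SE 0.30), and its spread within each group was wider than the distance between the groups.

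Of the TCF and LEF factors, 3 of 4 had fold changes above 0 and 0 of 4 passed. TCF7 measured 18.7 (H) and 13.8 (Q) CPM under H2O2, against 11.2 (H) and 12.6 (Q) CPM in mock (0.45, SE 0.24), without overlap, and its value was 0.22 without H2O2 library H. LEF1 lay at 6.74 (H) and 5.49 (Q) CPM under H2O2 beside 3.03 (H) and 6.31 (Q) CPM in mock (0.39, SE 0.40). Mock library H alone was low for LEF1, and without it the value was −0.05. TCF7L2, at 22.0 CPM per kilobase the most abundant of the 4, measured 44.9 (H) and 43.2 (Q) CPM under H2O2 and 57.3 (H) and 44.9 (Q) CPM in mock (−0.21, SE 0.21), and its value was −0.03 without mock library H. TCF7L1 had a fold change of 0.17 (SE 0.30), which was −0.06 when H2O2 library H was left out and −0.12 when mock library Q was.

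The 4 target genes had fold changes of 0.01 to 0.52, of which SP5 and CCND1 turned below 0 with scaling by the total count alone. TBX3, a transcription factor gene that follows beta-catenin in liver, measured 25.9 (H) and 33.0 (Q) CPM under H2O2, against 22.3 (H) and 18.9 (Q) CPM in mock (0.52, SE 0.23, 95% interval −0.06 to 1.09, edgeR adjusted p = 0.723). Its groups did not overlap, with log2 ratios of 0.21 for the H pair and 0.81 for the Q pair, and its value was 0.34 without H2O2 library Q. SP5, with 3 motif matches in its promoter, measured 7.05 (H) and 5.89 (Q) CPM under H2O2 and 6.0 (H) and 6.36 (Q) CPM in mock (0.07, SE 0.23, 95% interval −0.52 to 0.66).

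MYC and CCND1, genes of cell growth and of the G1 phase that many pathways besides Wnt control, overlapped between groups. MYC lay at 64.5 (H) and 90.1 (Q) CPM under H2O2 beside 47.5 (H) and 85.9 (Q) CPM in mock (0.21, SE 0.35, 95% interval −0.67 to 1.10). Its value was −0.15 without mock library H, −0.04 without H2O2 library Q and 0.70 without mock library Q. CCND1 lay at 232 (H) and 225 (Q) CPM under H2O2 beside 174 (H) and 280 (Q) CPM in mock (0.01, SE 0.28, 95% interval −0.71 to 0.73). The mock libraries held both the lowest and the highest CCND1 level, and without mock library H and without mock library Q its value was −0.30 and 0.39. Beside these genes, 12 of 12 genes of DNA replication and mitosis had fold changes above 0, with a median of 0.66, and 11 of them did not overlap between groups, against 18.1% of all genes upward, while 0 of 12 passed the test. Their part in the levels of the Wnt genes was not tested.

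**Figure D4:**
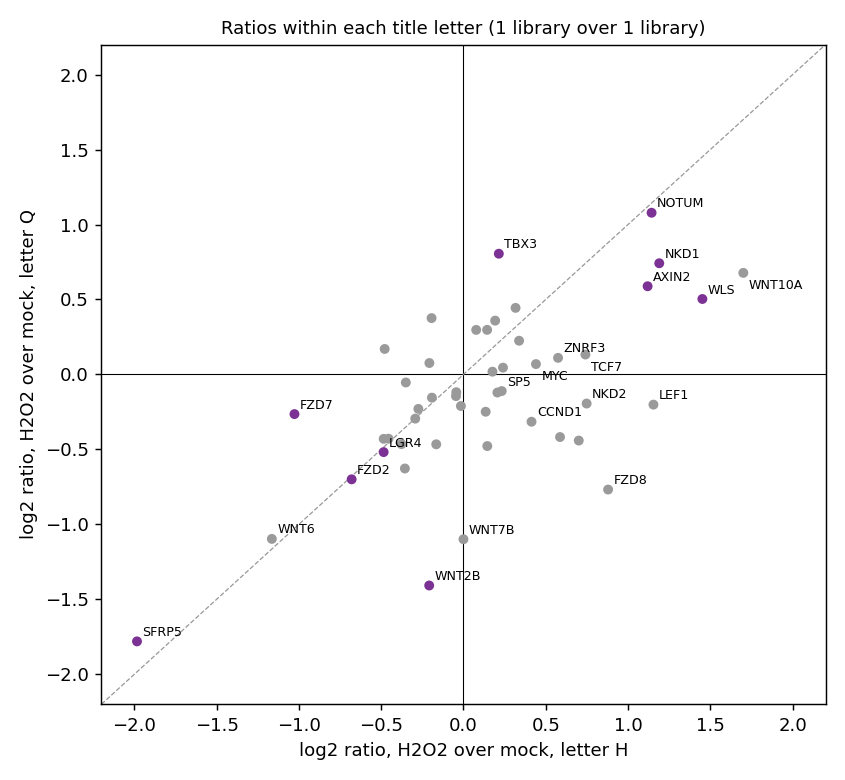
Log2 ratio of H2O2 over mock between the libraries of letter H (horizontal axis) and of letter Q (vertical axis) for the 48 Wnt genes, each from 1 library over 1 library. Purple points are the 10 genes without overlap and with a fold change of at least 0.5 in size, and the dashed line marks equal ratios. NOTUM, FZD2, LGR4 and SFRP5 lie near that line, while LEF1, NKD2 and FZD8 have opposite signs under the letters.

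The Q libraries both lay above the H libraries in 15 of 48 Wnt genes, or 31.2%, against 23.9% of all genes tested, and both below in 7, or 14.6%, against 21.8% of all genes. Together these are 22 genes separated by letter, beside 17 separated by treatment. Over all 27514 genes tested, 12576 were separated by letter and 10844 by treatment, so letter also outnumbered treatment there. Ratios within the letters had the same sign in 35 of the 48 genes and opposite signs in 13. Of the 35, 16 were above 0 and 19 below (WNT7B with a ratio near 0 for letter H). The share with the same sign over all genes tested was not computed. Each letter has 1 library per group, so that no test within a letter was possible. The count of genes above and below 0 depended on the mock libraries, with 16 above and 32 below without mock library H and 33 above and 15 below without mock library Q. Medians were then −0.14 and 0.16. Leaving out a library turned the sign of 25 of the 48 genes in at least 1 case. Single genes that could be fitted under all 13 alternatives and kept their direction numbered 21, among them WLS, FZD2, FZD7, LGR4, RNF43, SFRP5, NOTUM, NKD1, AXIN2, TCF7, CTNNB1 and TBX3. In those named the groups did not overlap, so leaving out a library could hardly turn them. How many of all genes kept their direction was not counted.

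Among 77 further genes of the pathway that are not on the list, 69 passed the filter, 36 of them with fold changes above 0 and 33 below, with a median of 0.03 and 0 that passed the test. At an unadjusted p under 5% there were 1 upward and 1 downward. Other ligands and R-spondins were low or did not pass the filter, as in RSPO2 and RSPO3, and WNT9B (−0.92, SE 0.33) and WNT2 (−0.60, SE 0.50) had the largest differences of the 7 that passed. WNT9B measured 0.421 (H) and 0.460 (Q) CPM under H2O2, against 0.764 (H) and 0.900 (Q) CPM in mock, without overlap. Of the 16 further receptors and antagonists that passed, LGR6 (−0.88, SE 1.10) and FZD10 (−0.84, SE 0.64), both with at most 22 reads per library, differed most, and LGR6 lay at 0.01 without H2O2 library H. In the list of intracellular and nuclear genes, 16 of 32 lay above 0 and 16 below. DVL1, a Dishevelled gene, led it with 85.6 (H) and 48.7 (Q) CPM under H2O2, against 47.2 (H) and 42.7 (Q) CPM in mock (0.58, SE 0.31), and its value was 0.12 without H2O2 library H. The corepressor TLE2 followed (−0.45, SE 0.80), with 1.07 without mock library H. Genes of planar cell polarity, the branch that works without beta-catenin, were split 7 to 7. DAAM2, a formin that binds Dishevelled, measured 2.26 (H) and 2.36 (Q) CPM under H2O2, against 1.3 (H) and 1.39 (Q) CPM in mock (0.78, SE 0.26, edgeR adjusted p = 0.719), and PRICKLE2 differed by 0.63 (SE 0.73), or by −0.47 without H2O2 library Q.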

How the data were processed

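Total RNA of Huh7 cells under H2O2 or mock treatment was sequenced, 2 libraries for each. Extraction used a NucleoSpin TriPrep kit and library preparation a TruSeq RNA kit, per the labels' protocols. The submitters' processing notes name Cuffdiff, TopHat 1.3.3, Bowtie 0.12.2 and CASAVA, as well as the builds hg19, GRCh37 and mm8, without saying what each was used for. How reads were counted, on which annotation and whether by strand is not given in the sources used here, so reads of a gene and of an antisense or overlapping gene cannot be told apart. Per the file headers, the deposited tables hold a whole read count and an FPKM value per transcript model.

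Each gene symbol was represented by the model with the most reads. These counts totalled 103851326 to 113082498 per library, above the mapped mates, and the cause was not tested. The deposited FPKM values served for alternatives only. Genes were filtered with filterByExpr (minimum count 10, minimum total 15), scaled by TMM and compared with edgeR 4.0.16 (quasi-likelihood, two-sided) in R 4.3.3, with treatment as the sole term (2 residual degrees of freedom, prior 3.2, common biological coefficient of variation 0.308) and Benjamini and Hochberg adjustment over all genes tested. The SE is the fold change over the square root of the F statistic, and the 95% intervals use its degrees of freedom. Levels per kilobase divide CPM by the GENCODE v29 transcript length matched by RefSeq accession and are approximate. Alternatives used DESeq2 1.42.0, limma 3.58.1 on log2(FPKM + 1) or log2(FPKM + 0.1), other scalings and filters, summed models, the letter as a block, and each library left out. The steps were tested on simulated counts with planted changes larger than that of any Wnt gene here. That test does not show that differences of the size given would be found.

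The genes given in full are those without overlap between groups and with a log2 fold change of at least 0.5 in size, and the one with most reads per kilobase in each role. ZNRF3, RNF43, LGR5, LEF1, WNT6, WNT10A, WIF1, TCF7, PORCN, MYC and SP5 were added after their values were seen. From each further list the 2 largest differences are named, and WNT9B, DVL1 and DAAM2 are among these. The genes and lists were chosen with earlier results of these data known.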

Additional observations from a re-analysis of the deposited data

How the results depend on the processing

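Under 13 alternative settings 0 Wnt genes passed 5%. Over all genes the number of calls was 0 in the main test, 139 with DESeq2, 9 without a filter on low counts and 45 with the replicate block, the letter as a term beside treatment, and 0 to 11 without each library in turn, 11 being without mock library Q. The number of Wnt genes above 0 was 24, between 16 and 33 without each library in turn, and 19, with 29 below, under scaling by the total count alone. That scaling moved the median of all genes to −0.09. The median of the Wnt genes lay between −0.14 and 0.16 without each library and between −0.09 and 0.03 under the other settings. Same-letter libraries deviated together (r = 0.436 across genes, which are not independent replicates), but the labels do not say what the letters mark, so the block is no more than an alternative. With it, 12 of the 48 Wnt genes had an unadjusted p under 5% (edgeR), beside 5223 of all 27514 genes tested. The lowest adjusted p of the Wnt genes with the block was 0.110, for NOTUM and SFRP5. The fold change of CCND1 turned to −0.089 with scaling by the total count alone and to −0.011 with a filter on FPKM. Leaving out each library in turn turned the sign of 25 Wnt genes in at least 1 case. Among those with most reads per kilobase in their role the ranges were −0.30 to 0.39 for CCND1, −0.30 to 0.16 for FZD5, −0.47 to 0.31 for DKK1, −0.52 to 0.19 for LRP5 and −0.081 to 0.64 for NKD2. The cause was not tested. With 2 libraries per group, and under 100 reads in 1 or more libraries for 10 genes, differences of the size given could not be told from the spread.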

Other observations

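Genes reported as TCF targets in tissues other than liver were split, with 8 of 17 above 0 and 9 below, a median of −0.06, and 0 that passed the test over all genes (edgeR). CD44, an adhesion receptor, lay at 0.323 (H) and 0.753 (Q) CPM under H2O2 beside 0.640 (H) and 5.18 (Q) CPM in mock (−2.43, SE 1.03, adjusted p = 0.719), and its value was −0.25 without mock library Q. PLAUR, the urokinase receptor gene, differed by −1.01 (SE 0.53), with overlapping groups, and by −0.42 without mock library Q.

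In liver, beta-catenin signalling marks hepatocytes around the central vein. Of 11 genes listed for beta-catenin in liver or for that zone, 3 lay above 0 and 8 below, with a median of −0.25 and 0 that passed. TNFRSF19 (−0.72, SE 0.49) was counted both here and among the targets in other tissues. SLC13A3, a dicarboxylate transporter, measured 0.969 (H) and 0.937 (Q) CPM under H2O2, against 0.310 (H) and 0.479 (Q) CPM in mock (1.27, SE 0.37, edgeR adjusted p = 0.719). This rests on 99 and 112 reads in H2O2 and on 30 and 58 reads in mock. ODAM differed by −0.92 (SE 0.62), or by 0.08 without mock library H. Groups did not overlap in 1 gene upward, SLC13A3, and in 2 downward, RHBG (−0.70, SE 0.27) and CYP2E1 (−0.48, SE 0.27). Of all genes tested, 18.1% lay higher without overlap and 21.3% lower. GLUL, the glutamine synthetase gene and the usual marker of that zone, named after its value was seen, measured 334 (H) and 186 (Q) CPM under H2O2 and 218 (H) and 172 (Q) CPM in mock (0.41, SE 0.34), and its value was −0.07 without H2O2 library H. Of 9 genes of the periportal zone 5 lay above 0 and 4 below. CDH1, E-cadherin, measured 97.7 (H) and 82.6 (Q) CPM under H2O2, against 301 (H) and 211 (Q) CPM in mock (−1.51, SE 0.26, adjusted p = 0.719), and HAL, histidine ammonia-lyase, differed by 0.83 (SE 0.76) with overlapping groups, or by −0.01 without H2O2 library H.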
